A study of Camponotus fellah with 299 samples.

Results

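The comparison was of brains from carpenter ant workers (Camponotus fellah) that tended the queen with brains from workers that tended the brood. Ants were kept where their oriented maturity was below 0.25. Oriented maturity is the deposited maturity in colonies 2 and 3, and 1 minus it in colony 4. An ant was a queen attendant where its queen attending tally was 8 or more and above its own brood care tally. It was a brood nurse where its brood care tally was 8 or more and its queen attending tally 3 or less. The rule used tallies and maturity only and no expression value. It found 32 queen attendants and 33 brood nurses, 65 of the 299 ants of the series and 65 of its 162 low-maturity ants.

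The study followed ants of 3 colonies for about a week, killed them, and sequenced the mRNA of each brain on its own. Queen attendants numbered 8, 13 and 11 in colonies 2, 3 and 4, and brood nurses 10, 14 and 9. No treatment, genotype or caste was given in the labels used here, so that the groups differ by what the ants were seen doing and by whatever goes with it. The labels give an age in months, a body length and a head width with no unit, and define neither maturity nor the ratio of nursing to foraging. Of the other 97 low-maturity ants, 16 had high tallies of both kinds with brood care above queen attending, and 81 met neither rule.

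In ant colonies workers shift with age from tasks inside the nest, such as feeding and cleaning larvae, to foraging outside it, a pattern called age polyethism. Workers that stay close to the queen lick, groom and feed her, and pick up the chemicals on her surface by which workers recognise her. Brood nurses handle eggs, larvae and pupae, whose own cues act on worker behaviour. Carpenter ant workers also vary in body size, and size goes with task in many of these species.

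Library totals of the 65 ants ran from 19.8 to 60.1 M counted reads with a median of 39.3 M (M, 1e+06 reads). Of 14664 gene models, 10233 were tested, and they held 99.98% of the counts of these ants. Expression is given as CPM, counts per M reads of the library. On the log2 scale the most alike pair of ants had a correlation of 0.99, against a median of 0.985 for an ant and its nearest neighbour. Nothing in the labels says more of how ants were reared or which were handled together, so p-values measure the spread between these ants. Each value is from a whole brain, so that fewer cells of a type and less RNA per cell cannot be told apart. The identifiers carry no gene names, so the brain label could not be checked against marker genes, and no role can be given to any gene model here.

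The care tallies that defined the groups were far apart. Queen attending tallies were 19.8 ± 8.3 in queen attendants (8 to 45, median 19, n = 32) and 1.27 ± 1.15 in brood nurses (0 to 3, n = 33; mean ± SD). Brood care tallies were 6.81 ± 4.21 in queen attendants (0 to 17, median 6) and 24.5 ± 11.7 in brood nurses (9 to 54, median 22). Queen attendance did not exclude brood care, since 12 queen attendants had a brood care tally of 8 or more, whereas the rule held every brood nurse at or below 3 queen visits. At the edges of the rule, 2 queen attendants stood at the lowest tally of 8 and the smallest excess of queen attending over brood care was 2. The lowest brood care tally of a brood nurse was 9, and 6 brood nurses stood at a queen attending tally of 3. Just outside, 5 ants had a queen attending tally of 7 above their brood care, 3 had a brood care tally of 7 with 3 or fewer queen visits, and 20 had a brood care tally of 8 or more with 4 to 7 queen visits.

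**Figure D1:**
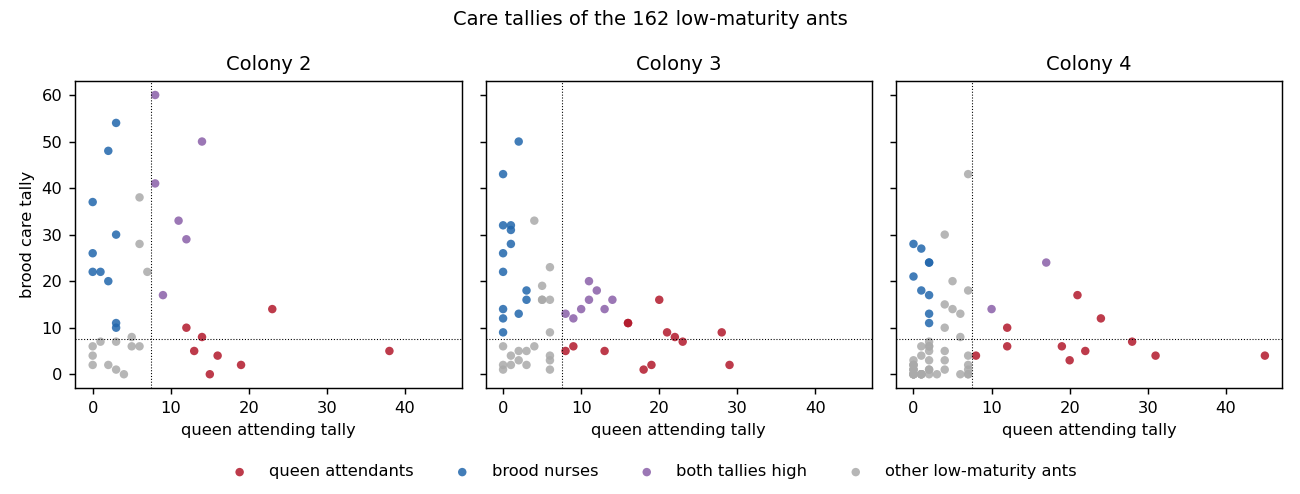
Queen attending tally (horizontal) and brood care tally (vertical) of each of the 162 low-maturity ants, by colony. Dotted lines mark the tally bound of 8. Queen attendants lie at the lower right and reach 45 queen visits, brood nurses lie at the upper left and reach 54 brood care tallies, and the 16 ants high in both lie between them.

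Queen attendants were larger than brood nurses. Body length averaged 9.6 ± 0.482 in queen attendants and 9.14 ± 0.559 in brood nurses (SD), in the unit of the label. Within colonies queen attendants were longer by 0.443 ± 0.114 (SE; 95% interval 0.215 to 0.671; two-sided permutation test within colony, 100000 resamples, p = 0.00012, 0.0011 adjusted over 9 labels). Of the 32 queen attendants, 23 were longer than the median brood nurse of their colony. Mean lengths were 9.33 in queen attendants and 8.66 in brood nurses of colony 2, 9.89 and 9.36 in colony 3, and 9.45 and 9.33 in colony 4. In colony 4 the groups lay over each other, and the median of the queen attendants was no higher than that of the brood nurses there. The difference was 0.357, 0.381 and 0.585 without colony 2, 3 and 4 (permutation p = 0.013, 0.0069 and 0.00027). Head width averaged 1.59 ± 0.176 in queen attendants and 1.48 ± 0.114 in brood nurses, a difference within colonies of 0.12 ± 0.0334 (SE; permutation p = 0.00059, 0.0027 adjusted).

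The age difference between the groups did not pass the test over all 3 colonies, and its size varied by colony. Queen attendants averaged 9.72 ± 5.94 months and brood nurses 7.91 ± 5.64 months (SD), a difference within colonies of 1.73 ± 1.41 months (SE; 95% interval -1.1 to 4.55; permutation p = 0.24, 0.54 adjusted). Of the 32 queen attendants, 18 were older than the median brood nurse of their colony. Mean ages were 8.12 months in queen attendants and 5.3 in brood nurses of colony 2, 9.54 and 11 in colony 3, and 11.1 and 6 in colony 4. Without colony 3 queen attendants were older by 4.02 ± 1.48 months (permutation p = 0.012), and without colony 2 and colony 4 the difference was 1.31 and 0.242 months. Age and body length were nearly unrelated in colonies 2 and 3 of these groups (r = -0.0839 and -0.066, across ants of both groups, given as a description) and had an r of 0.397 in colony 4.

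**Figure D2:**
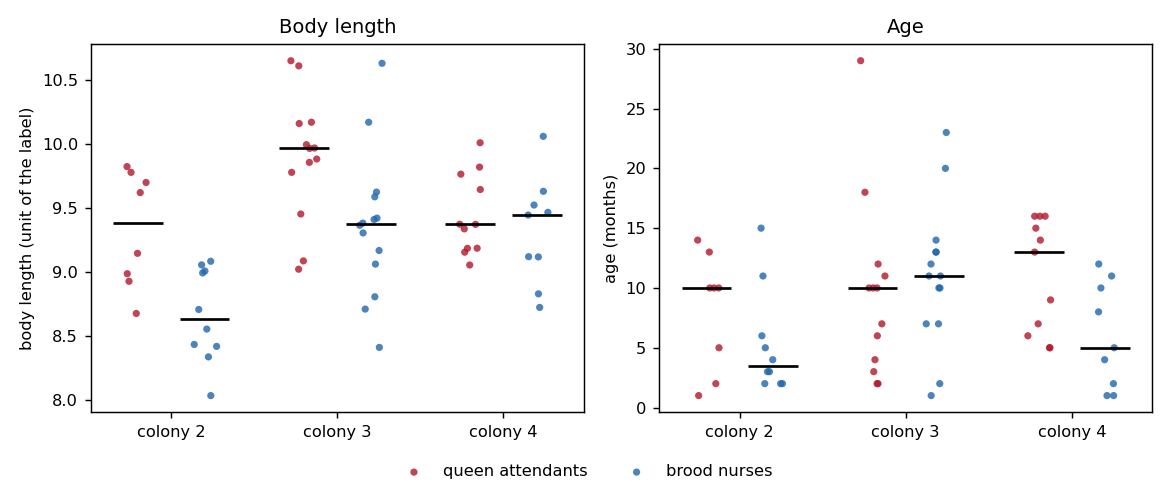
Body length in the unit of the label (left) and age in months (right) of each queen attendant and brood nurse by colony, with the median as a bar. Queen attendants sit higher in length in colonies 2 and 3 and overlap brood nurses in colony 4, whereas in age they sit higher in colonies 2 and 4 and not in colony 3.

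No other tally from inside the nest differed between the groups after correction. Nest trophallaxis, the passing of liquid food between ants, had a tally of 4.75 ± 3.22 in queen attendants and 4.21 ± 2.64 in brood nurses (SD; permutation p = 0.33, 0.59 adjusted). Grooming in the nest had a tally of 1.47 ± 1.32 in queen attendants and 1.03 ± 1.47 in brood nurses, a difference within colonies of 0.569 ± 0.277 (SE; permutation p = 0.048, 0.14 adjusted) that failed the correction. Nest cleaning averaged 0.844 in queen attendants and 1 in brood nurses (permutation p = 0.69, 0.78 adjusted), and guarding 0.156 and 0.121 (permutation p = 1). Oriented maturity averaged 0.0228 in queen attendants and 0.0283 in brood nurses (permutation p = 0.64, 0.78 adjusted). The rule held both groups under 0.25, which limits how far apart they could be in it. Its averages were 0.0593 in queen attendants and 0.0292 in brood nurses of colony 2. They were 0.0149 and 0.0427 in colony 3, and 0.00565 and 0.00473 in colony 4. Library totals averaged 39 M reads in queen attendants and 37.7 M in brood nurses (permutation p = 0.46, 0.69 adjusted).

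Few gene models differed between the brains of the groups. Of 10233 gene models, 13 were called different, a share of 0.127%, in edgeR's quasi-likelihood test with colony and age in the model and a Benjamini-Hochberg adjusted p under 0.05. Of these, 10 gene models (0.0977% of those tested) were higher in queen attendants and 3 (0.0293%) were lower. At an unadjusted p under 0.05 the same fit had 1079 gene models (10.5%). The same fit called 255 gene models (2.49%) for age, 165 up and 90 down with age, and 2 of the 13 were among them. The count of 13 was 0 without colony 2 (928 at an unadjusted p under 0.05), 1 without colony 3 and 3 without colony 4, with fewer ants in each of these fits.

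Differences were small in size. The 13 called gene models had a median absolute log2 difference of 0.188, from 0.109 to 0.763, against a median of 0.0432 for all gene models tested. Over all of them 5150 (50.3%) were higher in queen attendants. The median standard error of a difference was 0.05 on the log2 scale, and 0.0466 among the 8350 abundant gene models, those whose mean log2 CPM was 2 or more. The 95% interval of the difference lay wholly inside 0.5 on either side of 0 for 9274 gene models (90.6%), and for 8233 (98.6%) of the 8350 abundant ones. It lay inside 0.25 for 7350 (88%) of the abundant ones. There were 13 gene models with an estimated difference above 1, and none of these was called. Their median of mean log2 CPM was -0.858 and their lowest adjusted p was 0.0949.

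**Figure D3:**
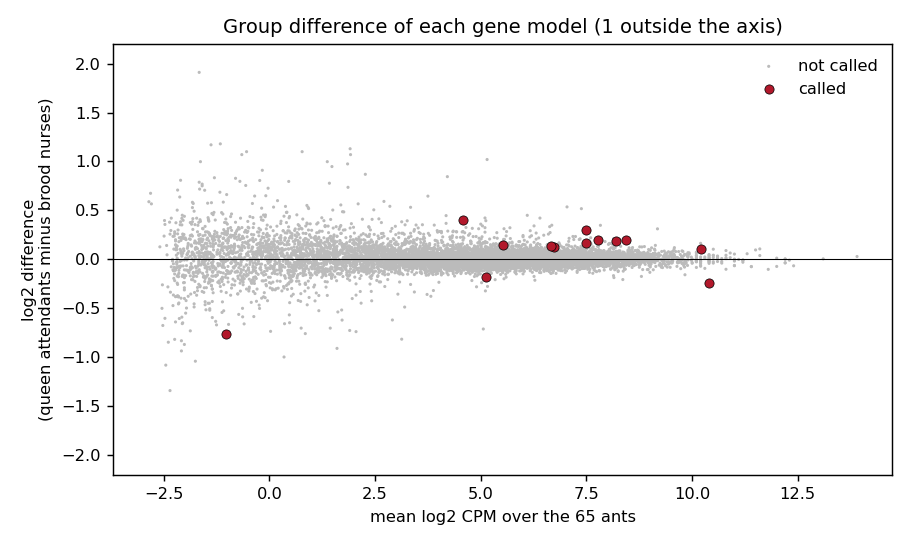
Log2 difference, queen attendants minus brood nurses, against mean log2 CPM over the 65 ants, with 1 point per gene model and 1 gene model outside the axis. The 13 called gene models are in red, 12 of them at a mean log2 CPM of 2 or above, and their differences are small beside the scatter of low-abundance gene models.

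Taken over gene models, group membership with age in the model took up 1.89% of the variance within colonies and age 2.91%, where a term unrelated to expression takes 1.61%. Added to group and age, body length took up 1.59%.

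Each colony fitted alone called 0 gene models (0%). At an unadjusted p under 0.05, edgeR gave 529 of 10274 gene models (5.15%) in colony 2, 385 of 10107 (3.81%) in colony 3 and 457 of 10169 (4.49%) in colony 4, and limma-voom likewise called 0 in each, with 474, 386 and 432 at that level. The lowest adjusted p was 0.912, 0.285 and 0.232. Differences in one colony were weakly related to those in another across gene models (Spearman's rho of 0.0269 for colonies 2 and 3, 0.094 for colonies 2 and 4 and 0.214 for colonies 3 and 4, over gene models that share their libraries). A test of whether the group difference depended on colony called 0 of 10233 gene models in edgeR, with 271 (2.65%) at an unadjusted p under 0.05 and a lowest adjusted p of 0.217, and limma-voom called 0 with 269. None of the 13 called gene models had an interaction p under 0.05. All 13 had one sign in the 3 colonies, as did 3265 (31.9%) of all gene models, a pattern that calling on the pooled fit favours.

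Among gene models higher in queen attendants, evm.model.ctg161.29 had the largest difference among the called ones of at least moderate abundance. Its level was 12.8 CPM at the lowest, 27.4 at the median and 42.4 at the highest in queen attendants, and 5.25, 20.8 and 33.9 CPM in brood nurses. The groups overlapped, with 28 of 32 queen attendants above the median brood nurse of all colonies pooled and 5 above the highest. Of 361 pairs of a queen attendant and a brood nurse of the same colony, the queen attendant was higher in 301. By colony the median was 25.9 CPM in queen attendants and 22.2 CPM in brood nurses of colony 2, 25.6 and 19.3 in colony 3, and 31.4 and 26.2 in colony 4. The log2 difference was 0.40 ± 0.09 (SE; edgeR adjusted p = 0.044), a 1.32-fold higher level. By colony the difference was 0.18 ± 0.10 in colony 2, 0.55 ± 0.16 in colony 3 and 0.16 ± 0.15 in colony 4 (edgeR interaction, unadjusted p = 0.256). Without colony 3 the difference was 0.16 (edgeR adjusted p = 0.662), without colony 2 it was 0.46 (0.219) and without colony 4 it was 0.45 (0.245). The call was also lost without the ant with the highest level (0.37, edgeR adjusted p = 0.0617).

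The second, evm.model.ctg33.8, was higher in queen attendants in each colony. Its level was 143 CPM at the lowest, 190 at the median and 314 at the highest in queen attendants, and 104.2, 147 and 261 CPM in brood nurses. Of the 32 queen attendants, 31 were above the median brood nurse of all colonies pooled and 7 above the highest. That highest brood nurse and all 7 were of colony 4, where levels were higher. Queen attendants of colonies 2 and 3 reached 248 and 224 CPM. Of 361 pairs of a queen attendant and a brood nurse of the same colony, the queen attendant was higher in 310. By colony the median was 184 CPM in queen attendants and 141 CPM in brood nurses of colony 2, 172 and 146 in colony 3, and 264 and 214 in colony 4. The log2 difference was 0.31 ± 0.06 (SE; edgeR adjusted p = 0.0064), a 1.24-fold higher level. It was called without colony 4 (0.31, edgeR adjusted p = 0.0317), and not without colony 2 (0.26, 0.219) or colony 3 (0.34, 0.21). Its slope on body length with group in the model was 0.22 ± 0.06 log2 units per unit of length (edgeR unadjusted p = 0.000145, adjusted 0.114, not called).

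Among gene models lower in queen attendants, evm.model.ctg3.49 was the most abundant of the 4 named. Its level was 911 CPM at the lowest, 1287 at the median and 1507 at the highest in queen attendants, and 1052, 1512 and 2002 CPM in brood nurses. With colonies pooled, no queen attendant was above the median brood nurse, and 4 were below the lowest one. Within colonies some were above the median brood nurse, up to 1481 CPM in colony 2 and 1435 CPM in colony 4. Of 361 pairs of a queen attendant and a brood nurse of the same colony, the queen attendant was higher in 88. By colony the median was 1173 CPM in queen attendants and 1421 CPM in brood nurses of colony 2, 1372 and 1538 in colony 3, and 1260 and 1353 in colony 4. The log2 difference was -0.24 ± 0.05 (SE; edgeR adjusted p = 0.0245), with values of -0.33, -0.21 and -0.23 in colonies 2, 3 and 4. It was not called without colony 2 (-0.21, edgeR adjusted p = 0.245), colony 3 (-0.28, 0.245) or colony 4 (-0.24, 0.211).

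The other one lower in queen attendants was evm.model.ctg71.46, for which 17 of 32 queen attendants fell below all brood nurses, with colonies pooled. Its level was 23.1 CPM at the lowest, 32.3 at the median and 41.1 at the highest in queen attendants, and 32.9, 36.6 and 44.3 CPM in brood nurses. Of the 32 queen attendants, 5 were above the median brood nurse of all colonies pooled. In 361 pairs of a queen attendant and a brood nurse of the same colony, the queen attendant was higher in 60. By colony the median was 32.3 CPM in queen attendants and 35.3 CPM in brood nurses of colony 2, 35.9 and 38.5 in colony 3, and 29.5 and 35.9 in colony 4. In colony 4 the ranges were 25.7 to 35.3 CPM in queen attendants and 32.9 to 38.6 CPM in brood nurses. The upper quartile of the queen attendants there, 30.8 CPM, was below the lowest brood nurse. In colony 3 their lower quartile, 34.9 CPM, was above that lowest level of all brood nurses. The log2 difference was -0.19 ± 0.04 (SE; edgeR adjusted p = 0.0064), with values of -0.13, -0.16 and -0.27 in colonies 2, 3 and 4. It was not called without colony 2 (-0.20, edgeR adjusted p = 0.169), colony 3 (-0.19, 0.115) or colony 4 (-0.15, 0.317). Inside the brood nurses its slope on the brood care tally was 0.10 ± 0.03 log2 units per doubling of the tally plus 1 (edgeR unadjusted p = 0.00756), in a fit that called 0 gene models and whose lowest adjusted p was 0.417. In the other low-maturity ants that slope was 0.03 ± 0.01 (edgeR unadjusted p = 0.0905). In the fit inside brood nurses 1228 gene models (11.8%) had an unadjusted p under 0.05. Some called gene models higher in queen attendants also rose with brood care there, against the sign of their group difference. Their slopes were 0.06, 0.10 and 0.12 (edgeR unadjusted p = 0.0436, 0.0416 and 0.0418). For the other named ones the edgeR unadjusted p ran from 0.206 to 0.549.

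**Figure D4:**
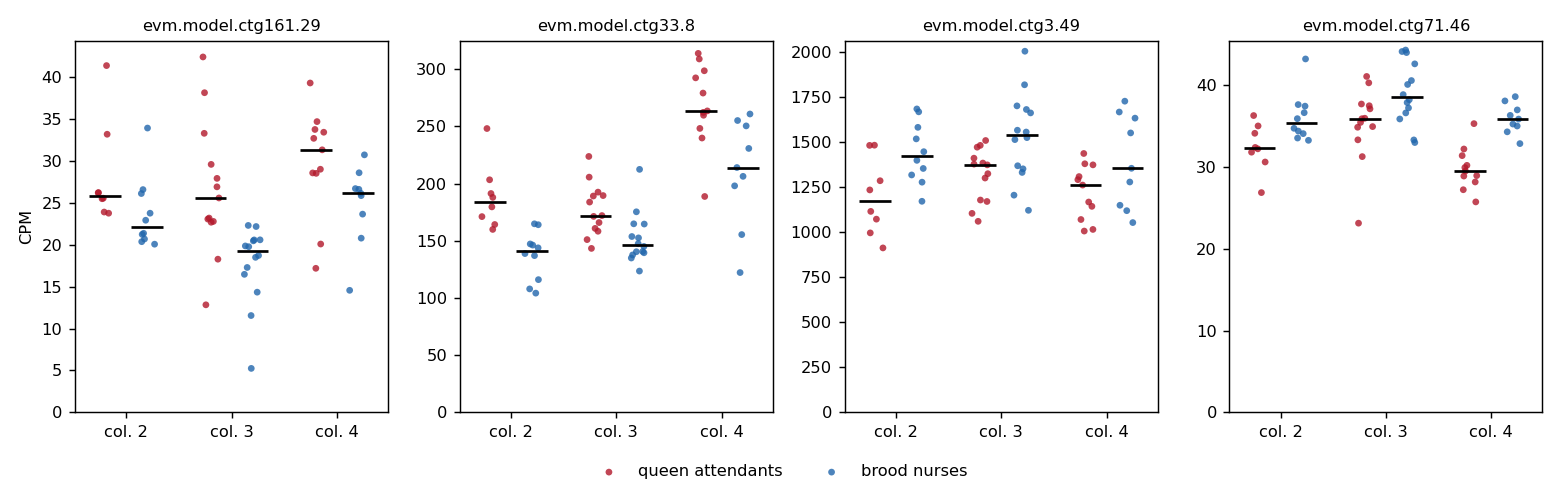
CPM of the 4 named gene models in each queen attendant and brood nurse by colony, with the median as a bar and axes that start at 0. Queen attendants sit above brood nurses for the left pair and below them for the right pair in all 3 colonies, with overlap in each panel.

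The other 9 called gene models are described without identifiers. Of them 8 were higher in queen attendants, by 0.11 to 0.20 on the log2 scale, or 1.08-fold to 1.15-fold, at mean log2 CPM of 5.53 to 10.2. The remaining one was lower by a larger step and was rare, with a median of 0.347 CPM in queen attendants (0.151 to 0.721) and 0.615 CPM in brood nurses (0.138 to 1.22). Every one of the 65 ants had reads of it, and the ranges overlapped. Its log2 difference was -0.76 ± 0.15 (SE; edgeR adjusted p = 0.0064). The 13 called gene models lay on 13 contigs.

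Because queen attendants were larger, body length was added to the model. Group then called 2 gene models (0.0195%), both lower in queen attendants and both among the 13, and body length called 10 (0.0977%), 6 higher and 4 lower in longer ants. One of those 2 was evm.model.ctg71.46, with a difference of -0.21 ± 0.04 (SE; edgeR adjusted p = 0.0194), and the other was the rare one. All 13 gene models kept the sign of their difference, and the median ratio of the difference with body length in the model to that without it was 0.843. Of the 13, 4 had an edgeR unadjusted p under 0.05 for body length, against 588 (5.75%) of all gene models in that fit. The 13 were called in these same ants without body length, in groups of unlike length, which favours such a count. The other 3 named gene models were not called in this model, with differences of 0.36 for evm.model.ctg161.29 (edgeR adjusted p = 0.46), 0.21 for evm.model.ctg33.8 (0.353) and -0.19 for evm.model.ctg3.49 (0.46). With head width in place of body length edgeR called 0 gene models, with 682 at an unadjusted p under 0.05. The differences were then 0.28 for evm.model.ctg33.8 and -0.19 for evm.model.ctg71.46 (edgeR adjusted p = 0.0586 for each), 0.28 for evm.model.ctg161.29 (0.599) and -0.21 for evm.model.ctg3.49 (0.344). With both measures in the model 1 gene model was called, evm.model.ctg71.46 (-0.20, edgeR adjusted p = 0.0414). Among ants 9 to 10 long, a range chosen after seeing the data that held 24 queen attendants and 18 brood nurses, edgeR called 0 gene models, with 1204 at an unadjusted p under 0.05. The differences among these ants were 0.43 for evm.model.ctg161.29, 0.29 for evm.model.ctg33.8, -0.21 for evm.model.ctg3.49 and -0.19 for evm.model.ctg71.46 (edgeR adjusted p from 0.0853 to 0.316).

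The 97 other low-maturity ants gave values that the rule did not use for either group. In a model with colony, age and both care tallies, edgeR called 3 of 10527 gene models (0.0285%) for the queen attending tally and 0 (0%) for the brood care tally, with 877 and 500 at an unadjusted p under 0.05. By limma-voom the calls were 0 and 0, with 915 and 528 at that level. The 3 were lower with more queen visits and of low abundance, and the count was 22 without colony 2, 0 without colony 3 and 0 without colony 4. The tallies themselves went together in these ants (Spearman's rho of 0.522 within colonies, as a description).

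The 13 gene models called between queen attendants and brood nurses were then read in these other ants. All 13 had a queen attending slope of the sign of their group difference, against 63.7% of all gene models, and 9 had it with an unadjusted p under 0.05, against 775 gene models (7.57%) in all. None had a slope of the opposite sign at that level. Their median absolute slope was 0.0493 log2 units per doubling of the queen attending tally plus 1, against 0.0179 for all gene models tested. Their median absolute slope on brood care was 0.00822, with 6 of 13 of the sign opposite to the group difference and 0 at an edgeR unadjusted p under 0.05. Without colony 2, 3 or 4 the 13 again had the sign of the group difference, with 9, 8 and 6 at that level. With body length in the model 13 had that sign and 6 had it at that level, against 6.53% of all gene models. Across all gene models the group difference had a rho of 0.352 with the queen attending slope and 0.0141 with the brood care slope. None of the 13 passed edgeR's adjusted threshold for queen attending in the other ants, and the count of signs was not tested against that of all gene models. All gene models are not a like set, since 12 of the 13 were abundant. The median SE of the group difference was 0.0379 in the 13 and 0.0543 in all gene models tested. Oriented maturity, which reached 0.2447 in the other ants, was not in the model.

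**Figure D5:**
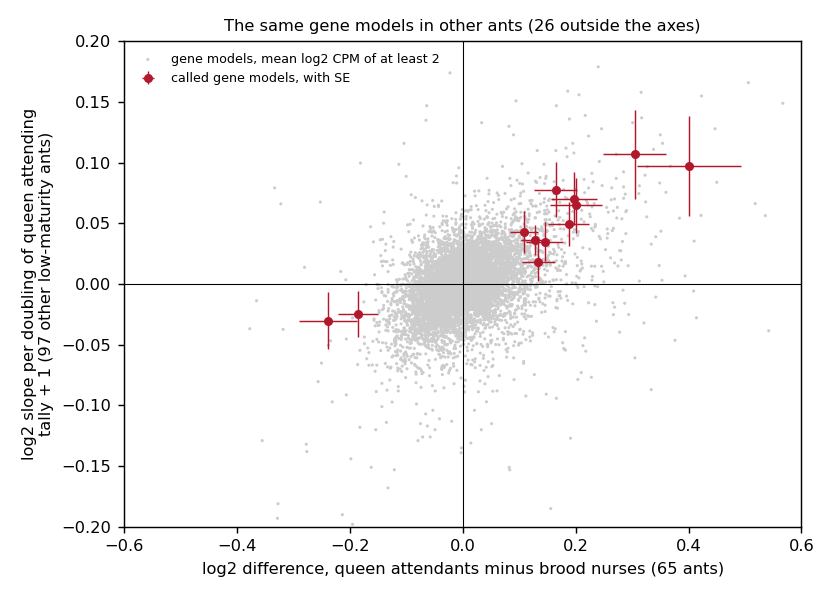
Log2 difference between queen attendants and brood nurses (65 ants, horizontal) and log2 slope per doubling of the queen attending tally plus 1 in the 97 other low-maturity ants (vertical), for abundant gene models (mean log2 CPM of 2 or above), with 26 outside the axes. The 12 called gene models in this range are red, with SE, and all lie at the lower left or the upper right of the origin.

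For the named gene models the slopes in the other ants were 0.10 ± 0.04 for evm.model.ctg161.29 (edgeR unadjusted p = 0.0211) and 0.11 ± 0.04 for evm.model.ctg33.8 (0.00435). They were -0.03 ± 0.02 for evm.model.ctg3.49 (0.203) and -0.02 ± 0.02 for evm.model.ctg71.46 (0.194). The level of evm.model.ctg33.8 was lowest in ants never seen with the queen, with a median of 130 CPM in 19 ants with a tally of 0, 155.5 in 26 ants with 1 to 3, 158 in 36 ants with 4 to 7 and 173 in the 16 with 8 or more. The values of those classes overlapped, from 68.2 to 199 CPM in the lowest class, while the highest class reached 219 CPM. For evm.model.ctg3.49 the medians were 1574, 1606, 1514 and 1394 CPM in the same order of classes, lowest in the last class but not highest in the first. The medians of the 2 remaining ones followed no steady order either. Medians were 21.4, 21.7, 24.2 and 20.6 CPM for evm.model.ctg161.29, and 35.7, 37.2, 36 and 38.7 CPM for evm.model.ctg71.46. In the 16 ants with high tallies of both kinds, which make up the highest class, these last 2 stood nearer to the brood nurse medians of 20.8 and 36.6 CPM than to the queen attendant medians of 27.4 and 32.3 CPM. All these medians pool colonies in unequal shares. Colony 4 gave 13 of the 19 ants with a tally of 0 and 2 of the 16 with 8 or more. With log2 levels centred within colonies, evm.model.ctg161.29 was also lowest at a tally of 0, with an SD of 0.57 there. Its means were -0.197, 0.005, 0.109 and -0.02 in the order of classes. For evm.model.ctg71.46 they were 0.019, -0.014, -0.03 and 0.069.

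Ants with middle or high oriented maturity (from 0.25 to 0.75, and above it) are given for comparison, with no test and with colonies in other shares. For evm.model.ctg33.8 the median was 155 CPM in 40 middle-maturity ants and 179 CPM in 87 high-maturity ants. For evm.model.ctg71.46 the medians were 34.9 and 34.8 CPM, for evm.model.ctg161.29 they were 21.8 and 19.2 CPM, and for evm.model.ctg3.49 they were 1461 and 1584 CPM. Levels also varied by colony, and in colony 3 queen attendants did not stand at the end of the classes for 3 of the 4. The median of evm.model.ctg33.8 there was 172 CPM in queen attendants and 197 CPM in high-maturity ants. That of evm.model.ctg3.49 was 1372 CPM in queen attendants and 1348 CPM in middle-maturity ants. That of evm.model.ctg71.46 was 35.9 CPM in queen attendants, 33.2 CPM in middle-maturity ants and 33.4 CPM in high-maturity ants.

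Variation inside each group was also looked at. Among the 32 queen attendants, edgeR called 0 of 10421 gene models (0%) for the queen attending tally, but 3243 (31.1%) had an unadjusted p under 0.05 and the lowest adjusted p was 0.0966. By limma-voom 0 were called and 2905 stood at that level. Inside the queen attendants the 13 called gene models did not all have a slope of the sign of their group difference. Those against it had slopes of -0.06, -0.03, -0.09 and -0.01, and of 0.33 for the rare one (edgeR unadjusted p from 0.091 to 0.799). The rest had that sign (edgeR unadjusted p from 0.00478 to 0.883). Among the 33 brood nurses edgeR called 0 of 10381 (0%) for the brood care tally, with 1228 (11.8%) at an unadjusted p under 0.05 and a lowest adjusted p of 0.417, and limma-voom called 0 with 1080 at that level.

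To see whether groups could be told apart in a colony not used to choose genes, the 100 gene models with the lowest p in the other colonies were combined into a score, the mean of their log2 CPM, centred on the labelled ants of that colony and taken with the sign of the difference elsewhere. The fits that chose them called 0, 1 and 3 gene models. The score averaged 0.18 ± 0.11 in queen attendants and 0.08 ± 0.08 in brood nurses of colony 2, 0.01 ± 0.11 and -0.04 ± 0.11 in colony 3, and 0.21 ± 0.19 and 0.12 ± 0.09 in colony 4 (SD). The queen attendant had the higher score in 59 of 80 pairs (73.8%) in colony 2, in 110 of 182 (60.4%) in colony 3 and in 70 of 99 (70.7%) in colony 4. The ranges overlapped in each colony. The score did not set queen attendants apart from all other ants: in colony 3 the median was -0.01 in queen attendants and 0.06 in high-maturity ants. In colony 2 the median of the other low-maturity ants without high tallies of both kinds was 0.09, against 0.08 in brood nurses. With body length in the fits that chose the gene models the shares were 77.5%, 67.6% and 67.7%. Age and body length were not taken out of the score itself. Queen attendants averaged longer than brood nurses in each colony. Mean ages were 8.12 and 5.3 months in colony 2, 9.54 and 11 in colony 3, and 11.1 and 6 in colony 4. What length and age add to the score was not tested.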

How the data were processed

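Brains of 299 ants were sequenced singly. Tri reagent was used for extraction and a KAPA kit for stranded mRNA libraries, per the labels' protocols. The authors deposited unnormalized counts of reads for each gene model, made with STAR and featureCounts per the submitters' processing notes. Versions, genome build, annotation and strand setting are not given in the sources used here, so overlapping gene models on opposite strands and near-identical copies could not be separated with certainty. Of counts from 1 to 10, 82.3% were even, as counts of both reads of a pair would be.

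Groups came from the labels of 289 ants, and 10 ants without them were left out of the groups and fits. Colony, age per 12 months and group entered an edgeR (4.0.16) quasi-likelihood F-test in R 4.3.3, with robust dispersions, TMM normalization, filterByExpr at a minimum count of 10 and Benjamini-Hochberg adjustment over all gene models tested. Tallies entered as log2 of the tally plus 1. The fit held the 65 ants only. Level values are CPM scaled by TMM factors over all 299 ants, with a prior count of 1 on the log2 scale. Alternatives used limma-voom (3.58.1), DESeq2 (1.42.0) and the settings given in the closing section. Fits were tested on simulated data. Label differences are from a linear model with colony, and their p from permuting group within colony. In the score, 100 gene models were used where under 20 were called in the other colonies.

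Members, tests and lists were chosen with earlier results of these data known. Named were the 2 called gene models higher and the 2 lower with the largest absolute difference among those of mean log2 CPM 2 or more and one sign in each colony. The identifiers are not paired with gene names in the files, so lists of hormone and nutrition, neuropeptide, biogenic amine, chemosensory, immune, stress and cell type marker genes could not be matched and none was tested, and no sequence is printed.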

Additional observations from a re-analysis of the deposited data

Results flagged for a closer look

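A single ant stood apart from its group in 2 of the 21 sets of values looked at, where chance picks out about 1 set in 20. Only sets of at most 10 ants were looked at. Both groups of colony 3 and the queen attendants of colony 4 were larger and were not looked at. Among the 10 brood nurses of colony 2 the highest level of evm.model.ctg161.29 was 33.9 CPM, with the next at 26.6 CPM. Among the same brood nurses the highest level of evm.model.ctg71.46 was 43.2 CPM, with the next at 37.6 CPM. For the gene model higher in queen attendants the value lies on the side of the queen attendants, and for the lower one it lies away from them.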

How the results depend on the processing

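The 13 gene models called between queen attendants and brood nurses kept the sign of their difference in all 23 alternatives run, while the count called ranged from 0 to 584. Each alternative used the ants in which the 13 were called, or part of them, which favours a kept sign. RLE factors gave 14, limma-voom 16, nest trophallaxis in the model 17, all labelled ants in the fit 11 (1 of them among the 13) and leaving out the queen attendant with the highest nurse-forage ratio, an alternative added after seeing the data, 9. More were called with no filter on low counts (29), DESeq2 (75, with 12 of the 13), library size in the model (20), 3 residual components (584), 3 blocks of ant numbers within each colony in place of colony (38) and the tally ratio rule (64, with 22 queen attendants and 18 brood nurses). The 3 components came from residuals of a fit that already held group. They could therefore not take up any of the group difference, which favours a higher count. Fewer were called without age (6), with an age slope per colony (7), with body length (2), head width (0), both (1) or oriented maturity (8) in the model, at a tally of 12 or more (1), in ants of 1 to 16 months (6), among ants 9 to 10 long (0, with 1204 at an unadjusted p under 0.05, added after seeing the data) and without colony 2, 3 or 4 (0, 1 and 3). The cause was not tested. Calls for body length were 4 by limma-voom and 37 without the filter. Calls for queen attending in the other ants were 0 by limma-voom, 60 without the filter, 0 with body length, and 22, 0 and 0 without colony 2, 3 and 4 (added after seeing the data). Without the filter brood care gave 52 there and queen attending gave 3 within queen attendants. The age difference was 4.02 months without colony 3. Of 24 alternatives each, evm.model.ctg161.29 stayed called in 9, evm.model.ctg3.49 in 13, evm.model.ctg33.8 in 16 and evm.model.ctg71.46 in 19, and none reversed. No paired analysis was possible because the replicate numbers only name the ants and the labels pair none of them. Gene models of low abundance had the widest intervals.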
